A study of Homo sapiens with 18 samples.

Results

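The comparison set T47D breast cancer cells after 15 days of G0S2 induction against T47D control cells. T47D is an established luminal line that carries estrogen and progesterone receptors and is widely used as a model of hormone-responsive breast cancer. Its libraries were chosen by the column labels of the T47D table: 3 control libraries and 3 day 15 libraries, 6 of the 18 of the series, with all 14768 genes of that table. The controls are labelled 0 DOX and control, the induced cells 15 DOX and 15 day G0S2, and doxycycline was given at 0.5 ug/ml. The 3 T47D libraries taken after 3 days of induction shared the estimate of spread, and the MDA-MB-231 libraries (an estrogen receptor negative line) of day 15 and control served for a single test between lines. The labels name neither the vector and promoter nor whether the cells are a clone. They also name no cells given doxycycline without G0S2 and no untreated cells of day 15, so G0S2, doxycycline, the vector and time in culture cannot be told apart in any comparison. The design text of the series calls its replicates biological, in triplicate, yet it describes an Aza resistant line beside its parental one, and no sample label names either. The sample labels, which were followed here, do not tie the 3 libraries of a group to separate cultures, so p-values cover library-to-library spread, which could be technical.

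G0S2 is a small protein of lipid droplets that inhibits adipose triglyceride lipase, the enzyme that starts the breakdown of stored fat, and its gene is switched on by several nuclear receptors. Type I interferons signal through a receptor pair and the kinases JAK1 and TYK2 to a transcription factor complex that includes STAT2 and IRF9, which binds the interferon-stimulated response element and turns on antiviral genes. In luminal breast cells the estrogen receptor, helped by FOXA1 and GATA3, drives targets such as PGR, GREB1 and TFF1. ATF4 is the transcription factor of the integrated stress response and raises amino acid transporters, serine synthesis enzymes and tRNA synthetases.

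The T47D libraries held 40.1 to 51.0 M reads in listed genes, and those of day 15 held 45.0 to 47.9 M. Of 18 marker genes of T47D 16 were listed, while of 19 markers of MDA-MB-231 only 7 were, VIM, AXL and CAV1 not among them. Markers of leukocytes (5 of 16 listed), fibroblasts (4 of 14) and endothelium (4 of 12) were mostly not listed, and none of PTPRC, DCN and PECAM1 was. Day 15 replicate 2 stood apart from its group: a chi-square per degree of freedom over genes was 14.5 and 23.6 against replicates 1 and 3, against 4.28 between those and 1.74 to 4.13 within the other groups. On principal component 3 it lay at 13.6, with replicates 1 and 3 at -4.79 and -10.9. The median SD over genes at day 15 was 0.083 on the log2 scale with it and 0.046 without it, against 0.050 in the controls. Relative to the other day 15 libraries it was lower in 29 of 39 mitosis genes, 32 of 36 chromatin genes and 23 of 26 splicing genes. Each result below was therefore also computed without it.

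At day 15, 1659 of 14768 genes (11.2%) passed an adjusted p of 0.05 in limma, 739 higher (5.0%) and 920 lower (6.23%) than in the controls. Most of these differences were small: the absolute log2 fold of called genes had a median of 0.267. A log2 fold above 1 was reached by 67 genes that rose and 44 that fell, and one above 2 by 17 and 5. Without day 15 replicate 2, 3705 genes (25.1%) were called, 1676 higher (11.3%) and 2029 lower (13.7%), and 1633 of the 1659 were among them. The count depended on other libraries too, with 930 genes called without control replicate 2, 1006 without control replicate 1 and 999 without day 15 replicate 1. Genes named below as having risen or fallen kept their call in each of the 6 omissions unless an exception is given.

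**Figure D1:**
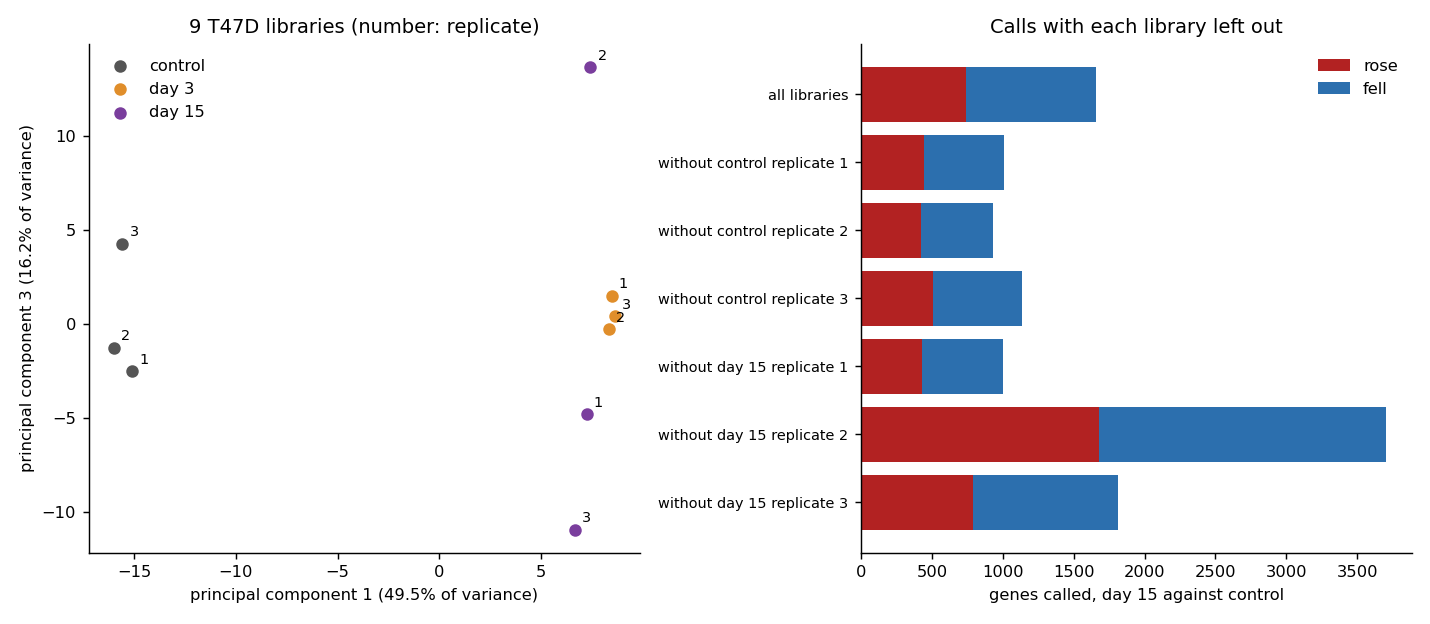
Left, the 9 T47D libraries on principal components 1 and 3 of log2 CPM (points, numbered by replicate): controls lie apart from induced cells on component 1, and day 15 replicate 2 lies at 13.6 on component 3. Right, genes called in day 15 against control with all libraries and with each left out (bars, rose and fell stacked): from 930 to 3705 genes.

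The introduced gene checked the labels. G0S2 (chr1:209675420-209676388, plus strand, GRCh38) stood at 0.900, 0.277 and 0.376 counts per M reads (CPM) in the controls and 766, 993 and 736 CPM at day 15. No library of either group came near the other group. The log2 fold was 10.61 (SE 0.37, adjusted p = 7.86e-06), and 10.48 without replicate 2. The day 3 libraries held 883, 855 and 844 CPM, and the day 15 minus day 3 difference was -0.062 (SE 0.37, adjusted p = 0.962), so a change of level between the induced times was not detected. Here and below a log2 fold is on the deposited scale, which adds a few reads to each value, so that folds of scarce genes come out too small.

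**Figure D2:**
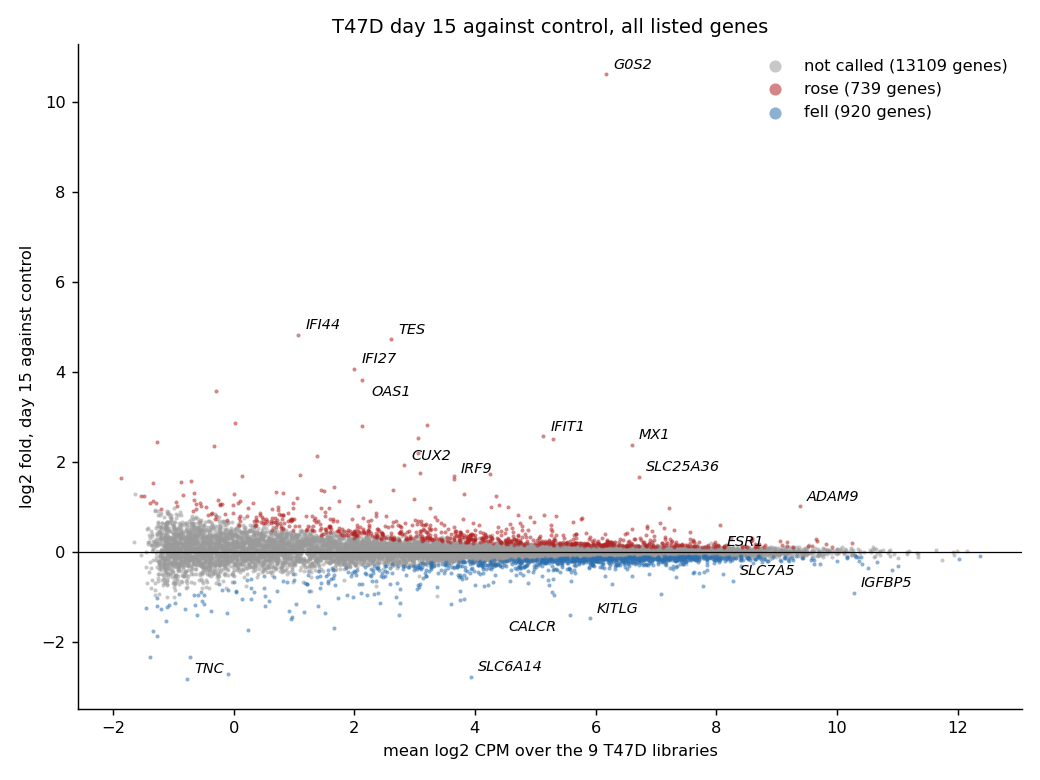
Each point is a gene of the T47D table: x, its mean log2 CPM over 9 libraries; y, its log2 fold at day 15 against control. G0S2 lies at 10.61, interferon-induced genes and TES reach folds of 2 to 5, and SLC6A14 and TNC lie lowest among the labelled falls.

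Interferon-induced genes made up 11 of the 12 largest rises after G0S2 among genes with a mean log2 CPM of 1 or more. Of 52 listed members of the type I interferon response, 48 rose and 0 fell, where 5.0% of all genes rose and 6.23% fell. Their median log2 fold was 1.05 against 0.0028 over all genes. The count of rises was 48 without day 15 replicate 2 (11.3% of all genes) and 47 or 48 in the other omissions. The members not called were UBA7 (0.36), MX2 (0.23), IRF1 (0.18) and ISG20 (-0.12), and ZNFX1, called at 0.11, lost its call without control replicate 1 or 2 or day 15 replicate 1. These genes were higher still after 3 days, when 51 of 52 had risen (1.16% of all genes rose) with a median of 2.03. In the direct test of day 15 against day 3, 47 of the 52 were lower at day 15 (3.35% of all genes fell), with a median difference of -0.90. That count was 48 without replicate 2 (9.89% of all genes fell) and 45 to 48 over all omissions.

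Among the transcription factors, IRF9, a DNA-binding subunit of that complex, stood at 4.61, 4.19 and 5.19 CPM in the controls, 29.3, 27.99 and 28.6 CPM at day 3 and 14.3, 14.5 and 14.5 CPM at day 15. All 3 groups were separate, with day 15 between the others. The day 15 fold was 1.62 (SE 0.075, adjusted p = 3.32e-09). STAT2 lay in the same order, at 61.3, 60.1 and 62.1 CPM, 99.6, 101 and 99.3 CPM and 70.9, 72.8 and 70.2 CPM, but rose by only 0.22 (SE 0.035, adjusted p = 0.00077). IRF7, which sustains interferon production, rose by 1.13 (SE 0.17, adjusted p = 0.000834).

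Antiviral effector genes rose as well. MX1 (chr21:41420304-41459214, plus strand), a GTPase that blocks viral replication, went from 21.2, 21.8 and 20.4 CPM in the controls to 388, 378 and 401 CPM at day 3 and 111, 105 and 115 CPM at day 15. Its fold was 2.38 (SE 0.042, adjusted p = 1.14e-13), with every day 15 library above every control and below every day 3 library. IFIT1 (chr10:89392546-89406486, plus strand), which binds foreign RNA, held 6.73, 6.07 and 6.76 CPM in the controls and 39.98, 35.6 and 41.7 CPM at day 15, a fold of 2.57 (SE 0.061, adjusted p = 1.59e-12). At day 3 it had reached 171, 164 and 165 CPM, and the day 15 minus day 3 difference was -2.09 (SE 0.061, adjusted p = 3.96e-11). The oligoadenylate synthetases, which sense double-stranded RNA and activate RNase L, rose by 3.82 (OAS1), 2.82 (OAS2), 2.80 (OASL) and 0.97 (OAS3). OAS2 held 1.57, 1.38 and 1.73 CPM in the controls against 11.9, 11.2 and 11.1 CPM at day 15, with no overlap.

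The largest fold in the list was that of IFI44, at 0.270, 0.138 and 0.0751 CPM in the controls and 5.99, 5.51 and 6.46 CPM at day 15 (log2 fold 4.82, SE 0.24, adjusted p = 5e-08). Its control libraries held only 12, 7 and 3 reads. IFI44 was among the 5 members not lower at day 15 than at day 3 by the test (log2 difference -0.27, SE 0.24, adjusted p = 0.638), together with HERC5 (-0.066), IFITM2 (-0.044), MX2 (-0.44) and ISG20 (0.051). IFI27 rose by 4.07 (SE 0.20, adjusted p = 8.66e-08), and ISG15, the ubiquitin-like modifier, by 2.13 (SE 0.22, adjusted p = 5.54e-05) from 0.607, 0.336 and 0.601 CPM to 2.10, 3.42 and 1.94 CPM. Replicate 2 was the highest of the day 15 libraries for ISG15, and without it the fold was 1.88. Reads of close paralogs (IFIT, IFITM, OAS, HLA) may have been split or merged by the authors' counting, so single members of these families are uncertain.

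**Figure D3:**
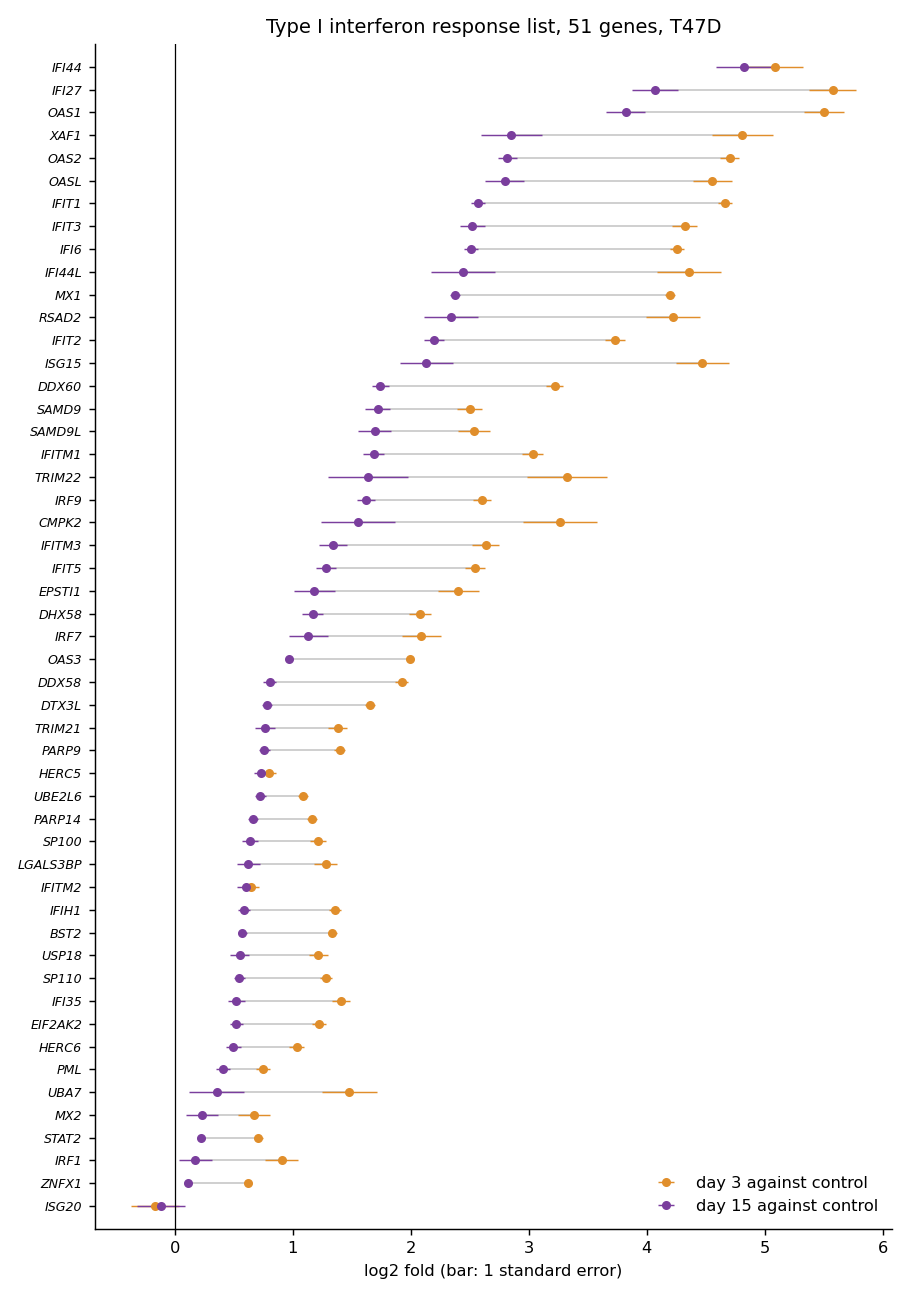
Log2 folds against control (x) of 51 of the 52 listed interferon response genes in T47D, at day 3 (orange) and day 15 (purple), with 1 standard error; rows are ordered by the day 15 fold. Day 15 values lie between 0 and the day 3 value for most genes, and IFI44, HERC5 and IFITM2 have nearly equal values at both times.

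The promoters of the largest rises are shown for what they share. Windows from 250 bases before to 50 bases after the RefSeq gene start (build GRCh38.p14) were searched on both strands for the core of the interferon-stimulated response element, GAAANNGAAA or TTTCNNTTTC, overlapping matches counted. The core lay in 3.65% of 27305 such windows and in 2.73% of the 10954 matched genes of the T47D table. It lay in 24 of 38 matched interferon genes (63.2%), in 7 of the 9 matched among the 12 largest rises (77.8%), and in 0 of the 7 matched among the 12 largest falls. The 7 rises are also counted among the 24, and all 12 were picked under the limit on level given above. At the share of all genes 7 falls are too few to show a lack of the core. The E2F core TTTGGCGC lay in 0 of the 38 interferon genes and in 1.16% of matched T47D genes, a share too low for 38 genes to show a lack of it. A match describes the sequence and is not a measured binding site. The stretches holding the core, with 15 bases on each side and the GAAA or TTTC parts of each core in capitals, are at chr1:78649756-78649795 (IFI44), chr14:94110613-94110665 (IFI27), chr10:89392492-89392544 (IFIT1), chr10:89327826-89327899 (IFIT3) and chr1:1013369-1013414 (ISG15) on the plus strand and chr1:27672261-27672363 (IFI6) on the minus strand.
IFI44: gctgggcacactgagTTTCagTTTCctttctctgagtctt
IFI27: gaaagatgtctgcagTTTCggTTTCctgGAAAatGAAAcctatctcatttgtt
IFIT1: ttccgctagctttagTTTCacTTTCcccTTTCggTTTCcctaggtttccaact
IFIT3: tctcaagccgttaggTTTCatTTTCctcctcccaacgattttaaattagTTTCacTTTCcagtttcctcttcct
ISG15: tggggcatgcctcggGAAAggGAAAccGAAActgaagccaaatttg
IFI6: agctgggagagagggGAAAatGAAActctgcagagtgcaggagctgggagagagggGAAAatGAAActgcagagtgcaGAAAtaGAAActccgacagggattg
IFI27 holds cores of both orientations, IFI6 holds 3 cores, and in ISG15 the 2 cores overlap. The core of MX1 begins 11 bases after the gene start, and OAS1, with a fold of 3.82, had no match in its window.

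Of 20 listed interferon receptor and signaling genes 2 rose and 1 fell, where 11.2% of all genes were called. The fall, MAVS, the mitochondrial adaptor of RNA sensors (-0.11), lost its call in 4 omissions, and JAK1 (-0.029), TYK2 (-0.016) and IFNAR1 (-0.038) were not called. TLR3, the endosomal sensor of double-stranded RNA, rose by 0.73 (SE 0.14, adjusted p = 0.00307). The cytosolic RNA sensors DDX58 and IFIH1, counted in the response list, rose by 0.80 and 0.58. CCL5, a chemokine, rose by 1.69 (SE 0.16, adjusted p = 8.4e-06) from 0.270, 0.277 and 0.276 CPM to 1.14, 1.08 and 0.899 CPM, and was 1 of 2 members of the 18 listed NF-kB and cytokine genes to rise.

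Antigen presentation genes rose with them, 13 of 23 listed and 0 falling (5.0% and 6.23% of all genes), with a median of 0.21. PSMB8, a subunit of the immunoproteasome, held 11.8, 11.1 and 11.5 CPM in the controls and 17.2, 18.7 and 17.6 CPM at day 15, with no overlap (log2 fold 0.63, SE 0.059, adjusted p = 5.99e-06). It was not called lower at day 15 than at day 3 (log2 difference -0.036, SE 0.059, adjusted p = 0.829). PSMB9, of the same complex, rose by 0.75, and HLA-B and HLA-C, class I heavy chains, by 0.49 and 0.40. TAP1, of the peptide transporter, rose by 0.30 but not without control replicate 2, and B2M, the class I light chain, by 0.11 but only with all libraries or without day 15 replicate 2. The list's count was 14 rises and 1 fall without replicate 2 (11.3% and 13.7% of all genes) and 8 to 12 rises in the other omissions.

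Over all genes 739 rose at day 15, and 494 were called lower at day 15 than at day 3. The genes given next are examples, outside the interferon list, of rises not called lower than at day 3. TES, CUX2, SLC25A36 and ADAM9 were named by the rule for genes, and TNNT1, HSD17B11, CLSTN2 and ABCC11 were chosen after their values were seen. TES (chr7:116210493-116258783, plus strand), a LIM-domain protein of focal adhesions, went from 0.720, 0.653 and 0.676 CPM in the controls to 19.7, 20.5 and 19.04 CPM at day 15, with no overlap (log2 fold 4.73, SE 0.088, adjusted p = 1.19e-13). It held 15.5, 16.3 and 13.7 CPM at day 3 and was called higher at day 15 than at day 3 by 0.38, a call lost without day 3 replicate 1 or 3 or day 15 replicate 1. Of the 2 listed genes on each side of TES along the chromosome, FOXP2 rose by 0.45 (adjusted p = 0.0104), MDFIC (0.16) and CAPZA2 (-0.036) were not called, and MET, named again below, had a fold of -1.40. CUX2, a homeobox transcription factor, climbed in both steps, from 3.22, 3.68 and 3.63 CPM through 7.15, 7.496 and 7.59 CPM to 13.7, 13.5 and 13.2 CPM (log2 fold 1.92, SE 0.079, adjusted p = 7.97e-10).

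SLC25A36, a mitochondrial carrier of pyrimidine nucleotides, held 54.2, 49.8 and 49.2 CPM in the controls and 158, 164 and 164 CPM at day 15 (log2 fold 1.67, SE 0.040, adjusted p = 1.59e-12). ADAM9, a membrane-bound metalloprotease, was the most abundant of them and rose in every day 15 library, at 423, 413 and 409 CPM against 840.0, 791 and 879 CPM (log2 fold 1.01, SE 0.035, adjusted p = 1.09e-10). Its day 15 and day 3 values overlapped, with a difference of -0.033. HSD17B11, a dehydrogenase found on lipid droplets, was scarce but rose steeply: 7, 10 and 5 reads in the controls, 41, 34 and 39 at day 3 and 109, 128 and 125 at day 15 (log2 fold 3.57, SE 0.19, adjusted p = 2.39e-08). TNNT1, a troponin subunit of slow muscle, rose late, with 17.8, 17.98 and 18.04 CPM in the controls, 19.2, 20.96 and 20.2 CPM at day 3 and 38.5, 32.5 and 36.5 CPM at day 15 (log2 fold 0.99, SE 0.063, adjusted p = 9.87e-08). CLSTN2 and ABCC11, a drug and bile acid exporter, fell at day 3 (-0.31 and -0.19) and rose at day 15 (0.45 and 0.53). Among listed genes CLSTN2 lies next to SLC25A36 along the chromosome.

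**Figure D4:**
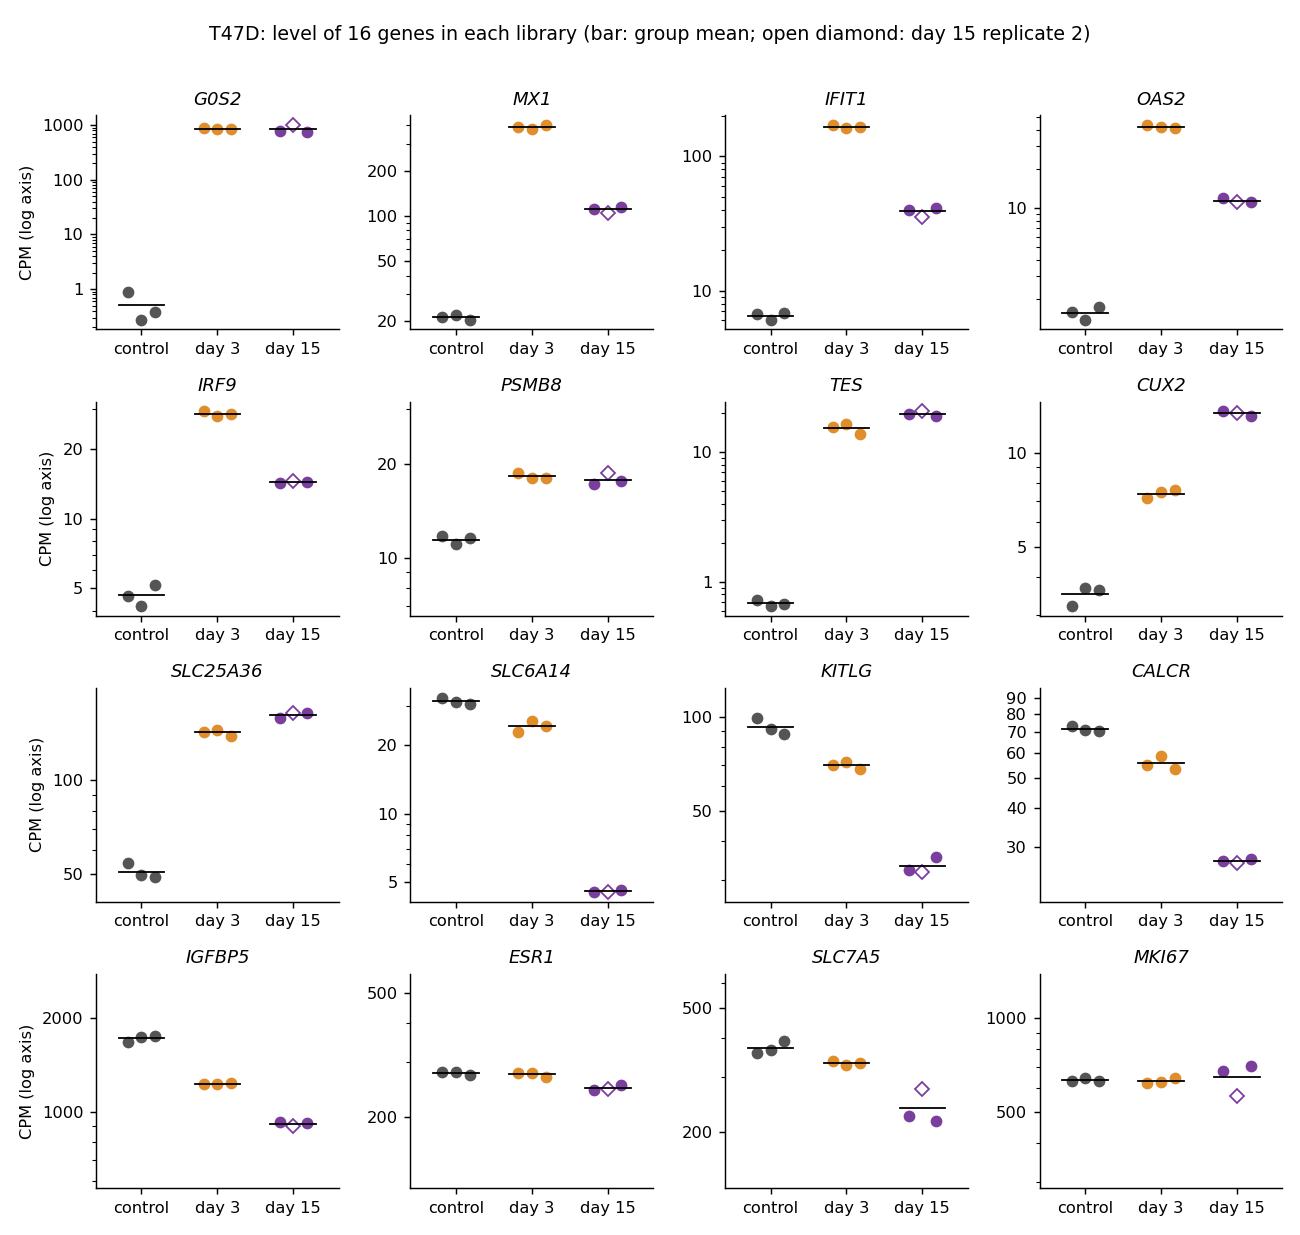
CPM (log axes) of 16 genes in each T47D library, by group; bars mark group means and the open diamond is day 15 replicate 2. Interferon genes peak at day 3 and stay above control at day 15, TES, CUX2 and SLC25A36 stay high, and SLC6A14, KITLG, CALCR and IGFBP5 fall in steps; for MKI67 the diamond lies below the other day 15 points.

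SLC6A14 had the largest fall among genes with a mean log2 CPM of 1 or more. This gene (chrX:116436622-116461458, plus strand), which encodes a transporter of neutral and cationic amino acids, went from 32.5, 31.2 and 30.6 CPM in the controls to 22.9, 25.6 and 24.5 CPM at day 3 and 4.50, 4.52 and 4.58 CPM at day 15. Its fold was -2.78 (SE 0.060, adjusted p = 6.99e-13), of which a difference of -2.40 (SE 0.060, adjusted p = 7.6e-12) lay between day 15 and day 3 (5.58% of all genes were called in that test, 2.23% higher). KITLG (chr12:88492793-88580851, minus strand), the ligand of the KIT receptor, held 99.3, 91.3 and 88.1 CPM in the controls and 32.3, 31.8 and 35.5 CPM at day 15 (log2 fold -1.48, SE 0.053, adjusted p = 1.33e-10). CALCR, the calcitonin receptor, held 73.1, 71.2 and 70.7 CPM and 27.1, 26.7 and 27.5 CPM (log2 fold -1.40, SE 0.044, adjusted p = 3.55e-11). In all 3 genes the day 15 libraries lay below every day 3 library, which lay below every control.

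IGFBP5, which binds insulin-like growth factors and was among the most abundant transcripts named, went from 1675, 1728 and 1748 CPM to 923, 899 and 918 CPM (log2 fold -0.91, SE 0.026, adjusted p = 1.44e-11). CLDN1, a tight junction claudin, fell from 183, 181 and 175 CPM to 93.9, 93.01 and 95.6 CPM (log2 fold -0.93, SE 0.032, adjusted p = 1.09e-10), and GPNMB, a membrane glycoprotein, had a fold of -0.97. INHBA, a subunit of activin A, had a fold of -1.40, PMP2, a fatty acid binding protein, of -1.69, SHISA2 of -1.37, STEAP4, a metalloreductase, of -1.17, TMEM45B of -1.13 and ANXA3, an annexin, of -1.13. Among scarce genes, picked after their values were seen, LRP2, an endocytic receptor, dropped from 66, 86 and 67 reads to 12, 6 and 9 (log2 fold -2.73, SE 0.23, adjusted p = 1.8e-06), and CLEC3A had a fold of -2.35.

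Estrogen-induced genes did not move one way. Of 33 listed genes of the estrogen receptor list, 5 rose and 11 fell (5.0% and 6.23% of all genes), with a median of -0.054. ESR1, the receptor itself, held 279, 279.6 and 273 CPM in the controls and 245, 246 and 253 CPM at day 15, a small fall in every library (log2 fold -0.16, SE 0.029, adjusted p = 0.0023). PGR, the progesterone receptor and a classic target, went from 838, 819 and 804 CPM to 714, 713 and 744 CPM (log2 fold -0.18, SE 0.029, adjusted p = 0.00101). The secreted trefoil peptides fell further: TFF1 went from 3.82, 4.08 and 3.71 CPM to 1.79, 1.38 and 1.76 CPM (log2 fold -1.21, SE 0.13, adjusted p = 3.42e-05), and TFF3 had a fold of -0.92, -1.12 without replicate 2. KRT13, a keratin, had a fold of -1.34, PDZK1, a scaffold protein, of -0.38 and STC2, a stanniocalcin, of -0.32.

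Other targets went up or showed no call. EGR3, an early response transcription factor, rose from 0.810, 0.633 and 0.977 CPM to 1.66, 2.24 and 1.63 CPM (log2 fold 1.13, SE 0.20, adjusted p = 0.00225), RET, a receptor kinase, by 0.80, AREG, an EGF family ligand, by 0.44, and NRIP1, a nuclear receptor corepressor, by 0.32. CCND1, cyclin D1, was called at 0.11 but in none of the omissions of a control library. GREB1 (-0.019), XBP1 (0.023) and MYC (-0.017) were not called. GREB1 held 487, 496 and 504 CPM in the controls and 489.6, 502 and 476 CPM at day 15, and these overlapped. Of 24 listed luminal identity genes 4 rose and 6 fell: GATA3 rose by 0.18, against AGR2, a secretory chaperone, at -0.27 and PIP, a secreted apocrine protein, at -0.43. FOXA1 was at -0.013, not called. Without replicate 2 the luminal count was 6 rises and 12 falls, and 2 to 5 rises and 3 to 6 falls in the other omissions. Among all genes 5.0% rose and 6.23% fell, 11.3% and 13.7% without replicate 2.

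Genes of the ATF4 program fell together. Of 37 listed, 24 fell and 0 rose (6.23% and 5.0% of all genes), with a median of -0.19. SLC7A5, the light chain of the large neutral amino acid transporter, held 359, 366 and 392 CPM in the controls and 226, 276 and 218 CPM at day 15 (log2 fold -0.64, SE 0.074, adjusted p = 0.000273). Its heavy chain SLC3A2 had a fold of -0.45, and SLC7A11, the cystine transporter that shares it, of -0.39. PSAT1 of serine synthesis stood at -0.53, DDIT3 (CHOP), a proapoptotic factor, at -0.47, and DDIT4, an inhibitor of mTORC1, at -0.40. For SLC7A5, replicate 2 was the highest of the day 15 libraries and the fold without it was -0.75. The count of falls was 32 without replicate 2 (13.7% of all genes) and 18 to 25 in the other omissions. Against day 3, 6 members were lower at day 15 (3.35% of all genes), 17 without replicate 2 (9.89%).

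Of 25 listed fatty acid oxidation genes 11 fell and 1 rose, with a median of -0.11. PPARGC1A, a coactivator of mitochondrial genes, went from 32.2, 33.2 and 30.5 CPM to 21.5, 20.9 and 24.2 CPM (log2 fold -0.53, SE 0.059, adjusted p = 4.08e-05). PPARA, a fatty acid sensor, had a fold of -0.41, ETFA, an electron carrier, of -0.30, and CPT1A, the gate of fatty acid import, of -0.16. The 1 rise, PPARG at 0.60, lost its call in 4 omissions. Of 73 respiratory chain genes 13 fell and 1 rose (median -0.078), with CYCS, cytochrome c, at -0.20 and SDHA of complex II at -0.19. Without replicate 2 the falls were 16 of 25 and 32 of 73, and in the other omissions 7 to 10 and 5 to 12. Over all genes 6.23% fell and 5.0% rose with all libraries, and 13.7% fell without replicate 2. In the other omissions 511 to 1018 of 14768 genes fell.

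Genes of fat storage, the setting in which G0S2 acts, were called at a share near that of all genes (11.2%). Of 21 listed lipolysis and lipid droplet genes 2 rose and 1 fell, 2 and 3 without replicate 2. PNPLA2, the lipase that G0S2 inhibits, held 33.8, 33.2 and 36.8 CPM in the controls and 37.4, 41.6 and 31.6 CPM at day 15, with overlap (0.084, SE 0.082, adjusted p = 0.596). PLIN2, the droplet coat protein, stood at -0.012. DGAT2, which makes triglycerides, rose from 2.41, 2.39 and 2.53 CPM to 3.998, 4.70 and 3.61 CPM (log2 fold 0.72, SE 0.12, adjusted p = 0.00142). MGLL, the monoglyceride lipase, was called at 0.37 but not without control replicate 1 or 2. Of 23 fatty acid synthesis genes 3 rose: THRSP, a lipogenic regulator, by 0.79, ACSL4, an acyl-CoA synthetase, by 0.51 and FADS2, a desaturase, by 0.34. Without replicate 2 this list gave 8 rises and 2 falls, where 11.3% of all genes rose and 13.7% fell. FASN (0.087) and SCD (0.047) were not called. Of 31 lysosome and autophagy genes 9 fell and 0 rose, 19 and 1 without replicate 2, with LAMP1, a lysosomal membrane protein, at -0.16.

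Of 37 receptor kinase and PI3K genes 6 fell and 1, RET, rose. IRS1, the adaptor of insulin and IGF receptors, went from 10.03, 11.3 and 10.8 CPM to 5.99, 7.81 and 5.96 CPM (log2 fold -0.71, SE 0.10, adjusted p = 0.00048). MET, the receptor of hepatocyte growth factor, was scarce, with 49, 43 and 32 reads in the controls and 13, 19 and 11 at day 15 (log2 fold -1.40, SE 0.24, adjusted p = 0.00137). IGF1R stood at -0.17, FGFR2 at -0.31 and INPP4B, a lipid phosphatase, at -0.30. Without replicate 2, 9 fell and 6 rose. The shares of all genes were 6.23% for falls and 5.0% for rises, 13.7% and 11.3% without replicate 2.

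Of 18 listed YAP and Hippo genes 9 fell, among them ANKRD1 (-1.18), a YAP target, and AMOTL1 (-0.64), a YAP-binding angiomotin, and 1, TES, rose. Of 23 TGF-beta and BMP genes 7 fell and 2 rose, with TGFB2, a ligand, at -0.71 and BAMBI, a decoy receptor, at -0.40. Of 13 listed mesenchymal and matrix genes 5 fell and 1 rose. TNC, tenascin C, dropped from 43, 78 and 39 reads to 3, 5 and 7 (log2 fold -2.82, SE 0.27, adjusted p = 9.7e-06), and COL3A1, a fibrillar collagen, from 17.6, 17.2 and 19.6 CPM to 9.35, 8.10 and 8.17 CPM (log2 fold -1.08, SE 0.075, adjusted p = 2.37e-07). S100A4, a calcium-binding protein linked to motility, rose by 0.46 (SE 0.10, adjusted p = 0.00834). Falls in the YAP list numbered 13 without replicate 2 and 7 to 9 in the other omissions. Among all genes 6.23% fell and 5.0% rose, and 13.7% fell without replicate 2.

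Proliferation genes depended on the library that stood apart. Of 39 mitosis genes 7 rose and 0 fell with all libraries, 27 rose and 2 fell without replicate 2, and 1 to 6 rose in the other omissions. The shares of all genes moved with that library too, from 5.0% to 11.3% for rises and from 6.23% to 13.7% for falls. MKI67, the proliferation antigen, held 633, 645 and 629.7 CPM in the controls and 677, 566 and 702 CPM at day 15, where replicate 2 was the only library below the controls. Its fold was 0.023 (SE 0.064, adjusted p = 0.878) with replicate 2 and 0.12 without it. PLK1, a mitotic kinase, rose by 0.21 (SE 0.034, adjusted p = 0.00102). Counts of chromatin genes (3 of 36 rose, 15 without replicate 2) and splicing factors (1 of 26 rose, 12 without it) also moved with that library. Of 45 DNA replication genes 2 rose and 1 fell, 6 and 4 without replicate 2, which is near or below the shares of all genes.

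The next 3 lists stand beside 6.23% of all genes that fell and 5.0% that rose (13.7% and 11.3% without replicate 2). Cytosolic ribosomal protein genes (78 listed) gave 7 falls and 1 rise, 23 and 12 without replicate 2. Of 31 cholesterol genes 4 fell and 0 rose, 10 and 3 without it. Of 31 hypoxia and glycolysis genes 5 fell and 1 rose, with EGLN3, an oxygen-sensing hydroxylase, at -0.87. Replication-dependent histones, whose transcripts lack a poly(A) tail, had summed levels of 339.7 to 349.7 CPM in the controls and 378 to 382 CPM at day 15; their part in the results was not tested. Endothelial markers (4 listed, 1 of them called) summed to 27.7 to 31.8 CPM in the controls and 36.2, 41.7 and 32.6 CPM at day 15, replicate 2 being the highest. PECAM1, CDH5 and VWF were not listed. Fibroblast markers (4 listed) went the other way, with 56.3 to 64.9 CPM in the controls and 50.1 to 51.8 CPM at day 15. In bulk RNA fewer cells of a kind and less RNA per cell cannot be told apart.

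**Figure D5:**
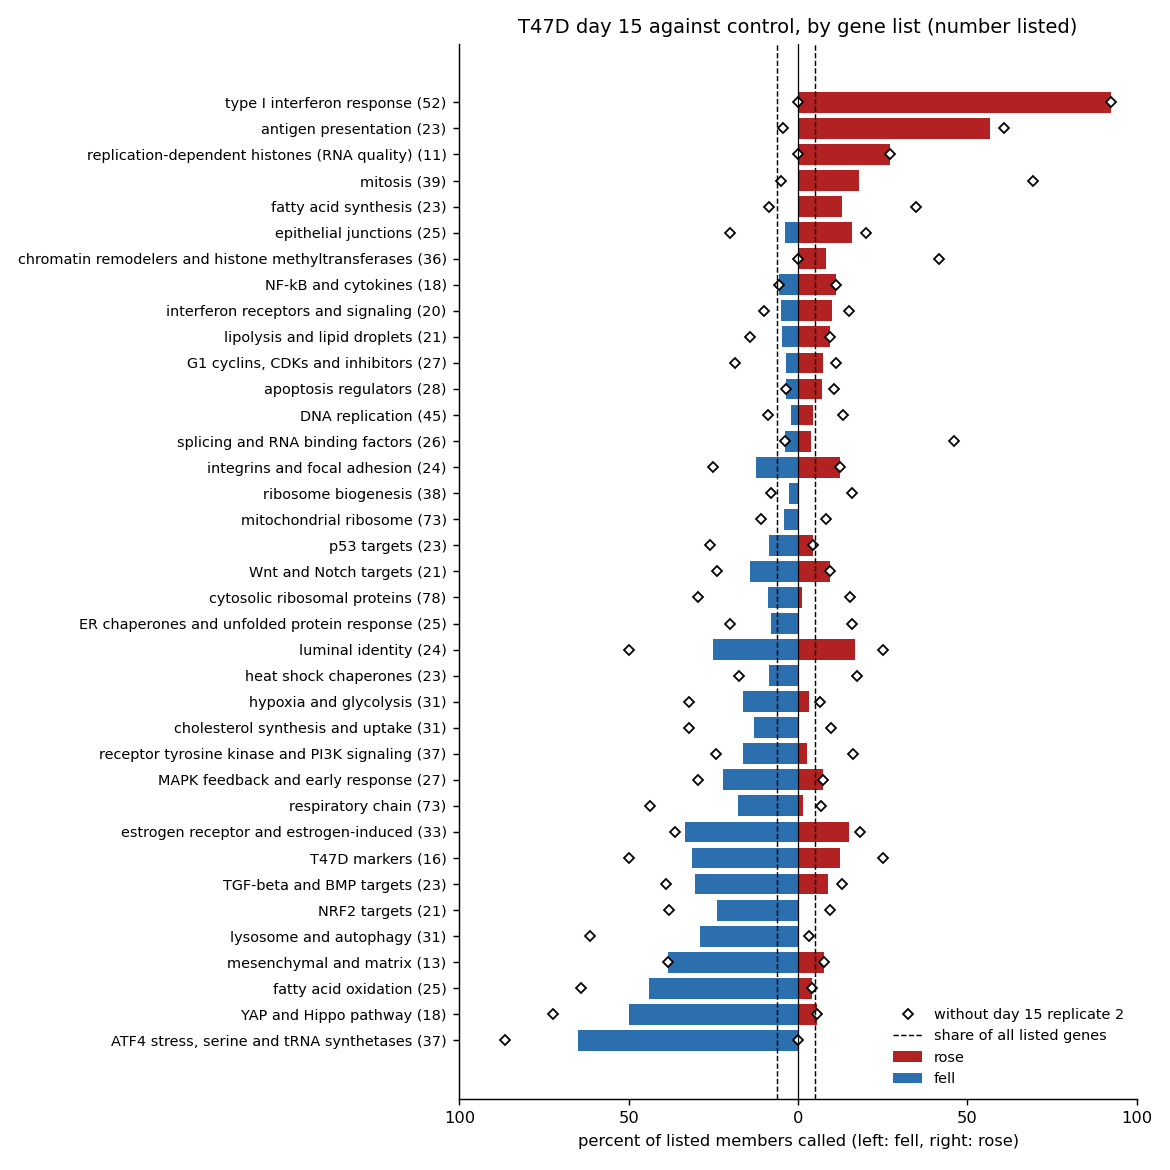
Percent of the listed members of each gene list (number in brackets) that rose (right) or fell (left) at day 15, with all libraries (bars) and without day 15 replicate 2 (diamonds). Dashed lines mark the shares of all genes with all libraries, 5.0% and 6.23%, and apply to the bars only. For the diamonds the shares of all genes are 11.3% and 13.7%, not drawn. The interferon and antigen presentation lists stand highest on the right, the ATF4, YAP and fatty acid oxidation lists on the left, and the mitosis, chromatin and splicing diamonds lie far beyond their bars.

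Whether the day 15 response differed from that of MDA-MB-231 was tested as the difference of the 2 lines' log2 folds over 12666 shared genes; each table was normalized separately, and each fold was taken within its table. It was called for 1196 genes (9.44%), 516 higher in T47D (4.07%) and 680 lower (5.37%). Of 51 shared interferon genes 45 were higher in T47D and 0 lower, 45 without T47D day 15 replicate 2 (4.59% of all genes) and 44 to 46 over all omissions. MX1 stood at -0.055 in MDA-MB-231 (8.20% of its genes were called, 3.42% higher and 4.77% lower), a difference of 2.43 (SE 0.071, adjusted p = 6.12e-16), and IFIT1 at -0.054. TES (0.0061 in MDA-MB-231), ADAM9 (0.093) and SLC25A36 (0.12) had differences of 4.72, 0.92 and 1.55. The G0S2 fold itself was larger in T47D, 10.61 against 5.57. G0S2 was scarce in the T47D controls, which bears on the size of that fold, and induced G0S2 levels were not compared between the lines.

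The falls differed too. Of 37 ATF4 genes 21 were lower in T47D and 0 higher, 26 without T47D day 15 replicate 2 (6.13% of all genes) and 18 to 26 over all omissions. SLC7A5 stood at -0.037 in MDA-MB-231, a difference of -0.61 (SE 0.085, adjusted p = 0.000113). KITLG (-0.079 in MDA-MB-231) differed by -1.40 (SE 0.068, adjusted p = 3.22e-12) and INHBA (-0.050) by -1.35 (SE 0.12, adjusted p = 1.13e-07). SLC6A14, TFF1, PGR and ESR1 are not in the MDA-MB-231 table and could not be tested in this way.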

How the data were processed

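RNA of T47D cells was sequenced on an Illumina HiSeq instrument after column extraction, per the labels' protocols. The submitters' processing notes name STAR, featureCounts and limma and the genome GRCh38.p13. Tool versions, scaling, any filter on scarce genes and strand use were not given in the sources used here. The deposited values are log2 CPM, a unit read from the values. With a prior of 3 reads scaled to library size removed, all values gave whole reads within 0.1, so depth was recovered (control 40.1 to 51.0, day 15 45.0 to 47.9 M reads); CPM in the text are these reads over the effective library size.

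The log2 values of all 9 T47D libraries were fitted in limma 3.58.1 (R 4.3.3, statmod 1.5.0) with a mean per group, trend and robust moderation, and p-values were adjusted by Benjamini-Hochberg over 14768 genes, with calls under 0.05. The line difference was fitted over 18 libraries and 12666 genes. Since the values are log2, count models were not used as the main test. The script was tested on simulated data. The comparison, its gene lists (43) and its tests were chosen with earlier results of these data known. Genes were named by rule: G0S2, the 12 largest rises and falls with mean log2 CPM of 1 or more and groups that do not overlap, the 10 smallest p each way, up to 6 called members of each list with 2 or more called, and a panel of 26; 12 further rises outside the lists, genes so marked in the text, and some list members named for their role were added after the values were seen. Some genes are not reported here. Replicate numbers were not taken to pair the libraries. Alternatives were other scalings, weights, filters, a pseudocount of 1 CPM, voom, the block and each library left out. Gene positions are from GENCODE 29 and promoters from RefSeq. Mitochondrially encoded genes (0 of 13 listed) gave no value.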

Additional observations from a re-analysis of the deposited data

Results flagged for a closer look

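The day 15 fold differed between the lines for 131 of the 184 genes named by rule and present in both tables, by the test of the difference itself (limma over 18 libraries, adjusted p under 0.05 over 12666 genes). It differed for 9.44% of all shared genes. Genes were named largely for their T47D fold, which is part of this difference, so a high share among them was built in and is no separate support. The 19 given here are G0S2 and those among the 12 largest rises and the 12 largest falls. The T47D minus MDA-MB-231 difference in log2 fold was 5.04 for G0S2, 4.72 for TES, 4.61 for IFI44, 4.32 for IFI27 and 3.77 for OAS1. It was 2.75 for OAS2, 2.69 for OASL, 2.62 for IFIT1, 2.47 for IFIT3 and 2.43 for MX1. It was 2.36 for IFI6, 2.31 for IFIT2 and 2.28 for ISG15. Genes that fell in T47D had differences of -1.56 (SHISA2, which rose by 0.19 in MDA-MB-231), -1.40 (KITLG), -1.35 (INHBA), -1.12 (ANXA3), -1.11 (CALCR) and -1.07 (TMEM45B).

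CLSTN2 and ABCC11 had calls of opposite direction at the 2 times. CLSTN2 averaged 19.9 CPM in the controls, 16.02 at day 3 and 27.2 at day 15, and the day 15 minus day 3 difference was 0.76 (adjusted p = 1.01e-06, limma). ABCC11 averaged 107, 93.8 and 154 CPM, with a difference of 0.71 (adjusted p = 4.78e-09, limma). Groups of 3 libraries were too small for a test of single outlying values.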

How the results depend on the processing

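In day 15 against control the count of 1659 genes was 996 when the 6 libraries were fitted alone and 7337 with library quality weights, whose estimate did not fully converge and gave day 15 replicate 2 a weight of 0.15 and replicate 1 one of 12.7. With 1 library left out the counts ranged from 930 to 3705. In day 15 against day 3 the count of 824 was 463 with 6 libraries alone, 511 with the replicate block, 549 without trend and robust moderation and 6255 with weights, and it ranged from 403 to 2604 with 1 library left out, lowest without day 3 replicate 2 and highest without day 15 replicate 2; only the omission of day 15 replicate 3, at 829, left it within 1.5 times. The line difference (1196) ranged from 860 to 1899 with 1 library left out, highest without T47D day 15 replicate 3. The other settings kept these counts within 1.5 times.

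Same-numbered control and day 15 libraries deviated from their group means with correlations of 0.073, -0.18 and -0.41, so a shared deviation was not seen. With groups this small, that cannot show whether the numbers pair the libraries. With the replicate block 1202 genes were called in day 15 against control and 984 in the line difference. Of 198 named genes called, 139 kept their call in every setting and 198 without day 15 replicate 2. Only uncalled genes changed sign. With 1 library left out FASN ranged from -0.033 (without day 15 replicate 2) to 0.18, PNPLA2 from -0.0078 to 0.19 and XBP1 from -0.00055 to 0.041 (each highest without day 15 replicate 3). MKI67 ranged from -0.038 (without day 15 replicate 3) to 0.12 and was -0.012 without day 15 replicate 1. MYC ranged from -0.043 to 0.028 (without day 15 replicate 3) and was 0.0054 without control replicate 2. GREB1 was 0.00096 and PLIN2 0.0041 without day 15 replicate 3, and PLIN2 was 0.020 without control replicate 3 and 0.025 with weights. The cause was not tested. Depth limits genes with few reads, and 3 libraries a group limit the small folds.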

Other observations

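Further lists are given beside the 5.0% of all genes that rose and the 6.23% that fell (11.3% and 13.7% without day 15 replicate 2). Of 27 MAPK feedback and early response genes 6 fell and 2 rose. JUN and FOSL2, subunits of AP-1, had folds of -0.31 and -0.30, and DUSP6, an ERK phosphatase, stood at 0.14, not called. Of 21 NRF2 targets 5 fell and 0 rose, with FTL, ferritin light chain, at -0.25 and NQO1, a quinone reductase, at -0.16. Without replicate 2, 8 NRF2 targets fell and 2 rose. Of 21 Wnt and Notch targets 3 fell and 2 rose: HEY2 and NRARP, Notch targets, rose by 0.35 and 0.26, and DKK1, a secreted Wnt inhibitor, went from 40, 20 and 25 reads to 3, 10 and 7 (log2 fold -1.76, SE 0.36, adjusted p = 0.00564, limma). Of 24 integrin and focal adhesion genes 3 rose and 3 fell, with CD44, the hyaluronan receptor, at -0.54 and TNS3, a tensin, at -0.55; without replicate 2 the falls were 6. Of 23 heat shock genes CRYAB and HSPB8, small heat shock proteins, fell (-0.47 and -0.45) and no member rose. Without replicate 2, 4 heat shock genes fell and 4 rose. Of 23 p53 targets 2 fell and 1 rose, 6 and 1 without replicate 2.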
